A study of Mus musculus with 4 samples.

Results

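The 8 genes described here encode receptors that steer where T cells move or what they sense in tissue: the chemokine receptors Ccr2, Ccr6, Cxcr4, Cxcr5 and Cxcr6, the sphingosine 1-phosphate receptor S1pr4, the oxysterol receptor Gpr183 and the proton-sensing receptor Gpr65. They were taken by symbol from the authors' deposited table of 55450 genes, in which all 8 were found and all 8 had a mean normalized count of at least 100. The table compares mouse Th17 cells, which are CD4 helper T cells that make IL-17, after they received a CRISPR guide against Adarb1 (PSIN_sgAdarb1) with cells given the same vector without a guide (PSIN_empty control). ADAR2, the product of Adarb1, turns adenosines of double-stranded RNA into inosines. Each group had 2 cultures, and each of 2 donor mice gave a culture to both groups. All cultures carried a Cas9 transgene per the genotype labels, whereas the design text calls the donors wildtype. Naive CD4 T cells from animals 8 to 12 weeks old were stimulated through CD3 (0.25 µg/mL antibody) and CD28 (1 µg/mL) for 24 h, transduced with retrovirus, and cultured in Th17 conditions (20 ng/mL IL-6, 0.3 ng/mL TGF-β) for 72 h. The sources used here do not give the promoter that drives Cas9, the guide sequence or any selection of transduced cells.

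Chemokine receptors are proteins with a membrane-spanning helical bundle that signal through inhibitory G proteins, so that a cell crawls up a gradient of the matching chemokine. S1P receptors read a lipid that is high in blood and lymph and govern exit from lymphoid organs, and Gpr183 reads oxysterols that position cells within these organs and in the gut. Gpr65 does not guide cells along a gradient but is activated by acid and raises cyclic AMP. Ccr6 is a textbook surface receptor of Th17 cells and is also carried by B cells, while Cxcr5 belongs to follicular helper T cells and B cells.

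All fold changes below are the authors', from their DESeq2 fit, with positive values meaning a higher level in sgAdarb1. The table names no numerator, so this order follows the design text and every sign would turn under the opposite order. For 2 of the 4 samples the treatment tag and the title disagree. The grouping behind the fold changes could not be checked. The columns of values per library bear names that match none of the sample labels and were not used, so levels are means over all libraries and the errors are the deposited standard errors (SE). In bulk RNA, fewer cells that carry a receptor and less of its RNA per cell cannot be told apart.

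The cultures held RNA of the labelled cell type: all 8 CD4 T cell markers and all 8 Th17 markers were measured, with mean normalized counts of 2463 to 15286 and 229 to 4826 in the authors' deposited table. The authors' deposited table puts Adarb1 itself at 0.11 ± 0.12 on the log2 scale, averaging 2130 normalized counts. Markers of other cells were also present. The 9 B cell markers had mean normalized counts of at least 10.8, summing to 1733, in the authors' deposited table. Of the 12 myeloid and dendritic cell markers, Siglech was at 0 and the others summed to 343 in the authors' deposited table. The 8 mast cell and basophil markers summed to 114, and the 7 CD8 T and NK cell markers to 2137, in the authors' deposited table. Few genes made up most of these sums. Kit averaged 66.8 and Cpa3 28.7 normalized counts in the first. In the second, Nkg7 averaged 1357, Cd8a 287, Cd8b1 218, Eomes 184 and Klrd1 83.8 normalized counts. Ncr1 and Klrb1c of the same list averaged 1.24 and 6.57.

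Levels of different genes can be compared only per length, and were set against the length of all annotated exons in kilobases (kb). Gpr65 was the most abundant of the 8 receptor mRNAs and Ccr2 the least abundant. Gpr65 stood at 941 normalized counts per kb, at percentile 95.5 of the 16633 protein-coding genes with a fold change, and Gpr183 at 417 per kb (percentile 88.6). Ccr6 followed with 328 per kb (percentile 85.1) and Cxcr6, the receptor for the membrane-bound chemokine Cxcl16, with 263 per kb (percentile 81.8). In the lower range lay S1pr4 at 141 per kb (percentile 70.3) and Cxcr4, the receptor for Cxcl12, at 79.9 per kb (percentile 60.2). Cxcr5 at 52.8 per kb (percentile 53.5) and Ccr2 at 20.9 per kb (percentile 42.8) lay near the middle of all protein-coding genes. The closest neighbours in this order were Ccr6 and Cxcr6 (1.25-fold apart) and Gpr183 and Ccr6 (1.27-fold apart), and the other neighbours lay 1.52-fold to 2.53-fold apart. The table gives no spread of a level, so whether neighbours differ beyond it was not tested. The order was the same when the longest transcript replaced the sum of exons, but Gpr183 (442 per kb) and Ccr6 (434 per kb) then lay almost level.

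**Figure D1:**
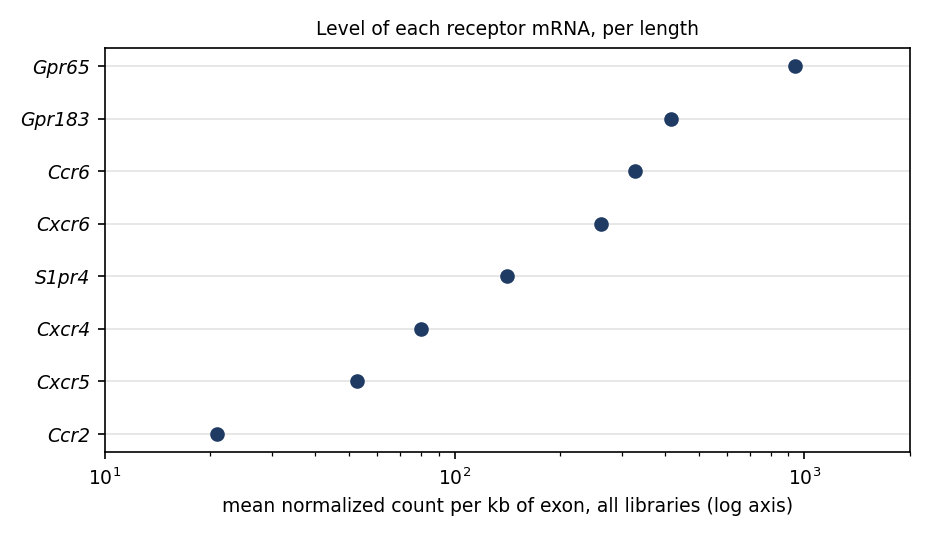
Mean normalized count over all libraries per kb of annotated exon for each of the 8 receptor genes, on a log axis, ordered by level. Each point is 1 gene, without error bars because values per library were not used; Gpr65 (941 per kb) is highest and Ccr2 (20.9 per kb) lowest.

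Among the 24 chemokine receptor genes with a fold change, out of 25 listed, Ccr6 ranked 4 and Cxcr6 ranked 5 by level per kb. Above them stood Ccr4 (1056 per kb), a receptor of skin-homing and Th2 cells, Ccr7 (858 per kb), which directs cells into lymph nodes, and Ccr8 (754 per kb). Cxcr4 ranked 7, Cxcr5 ranked 9 and Ccr2 ranked 12. The atypical receptor Ackr3, which also binds Cxcl12, was at 0 in the authors' deposited table.

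None of the 8 receptor genes passed the test between sgAdarb1 and empty vector. In the authors' deposited table (DESeq2), 0 of the 8 had an adjusted p below 0.05, beside 0 of 29383 genes overall (0%). At an unadjusted p below 0.05 there were again 0 of the 8, beside 61 of 29383 (0.208%). That is far below the share of 0.05 that calibrated p-values would give if no gene differed. The median absolute Wald statistic (fold change over SE) was 0.37 over genes averaging at least 10 normalized counts. The deposited SEs thus look too large for these data, which limits the intervals, needed differences and missing calls given here. The reason was not tested. The fold changes were small, 3 positive and 5 negative, with a median of -0.07 on the log2 scale. The median over all 14547 genes averaging at least 10 normalized counts was 0.00, and 50.5% of those were positive. The adjusted p was 1.00 for each of the 8 in the authors' deposited table (DESeq2).

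Of the chemokine receptors, Ccr2, which draws monocytes and inflammatory T cells toward Ccl2, averaged 141 normalized counts and was at 0.01 ± 0.37 (log2, SE) in the authors' deposited table. Its 95% interval ran from -0.73 to 0.74. Cxcr4 averaged 145 normalized counts and was at -0.18 ± 0.36 in the authors' deposited table (interval -0.89 to 0.53). Cxcr5, which brings cells into B cell follicles along Cxcl13, averaged 176 normalized counts and was at -0.20 ± 0.36 in the authors' deposited table (interval -0.91 to 0.51). These 3 low genes have wide and similar intervals, each spanning 0. Cxcr6 was better measured, averaging 507 normalized counts at 0.16 ± 0.21 in the authors' deposited table, and its interval of -0.26 to 0.57 spans 0.836-fold to 1.48-fold. Ccr6 averaged 762 normalized counts and was at -0.19 ± 0.49 in the authors' deposited table, and its interval ran from -1.14 to 0.76.

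The lipid and proton receptors had the tightest values together with Cxcr6. S1pr4, a receptor mostly of blood and lymphoid cells, averaged 337 normalized counts and was at 0.15 ± 0.24 in the authors' deposited table (interval -0.33 to 0.63). Gpr183 averaged 1203 normalized counts and was at -0.11 ± 0.16 in the authors' deposited table (interval -0.43 to 0.20). Gpr65 averaged 1946 normalized counts and was at -0.03 ± 0.13 in the authors' deposited table. Its interval, -0.29 to 0.22, spans 0.819-fold to 1.17-fold and is the narrowest of the 8. The intervals of 7 of the 8 lay wholly within 1 log2 unit of 0, the exception being Ccr6. Such an interval was found for 64.5% of all genes averaging at least 10 normalized counts and for 97% of those averaging at least 100.

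**Figure D2:**
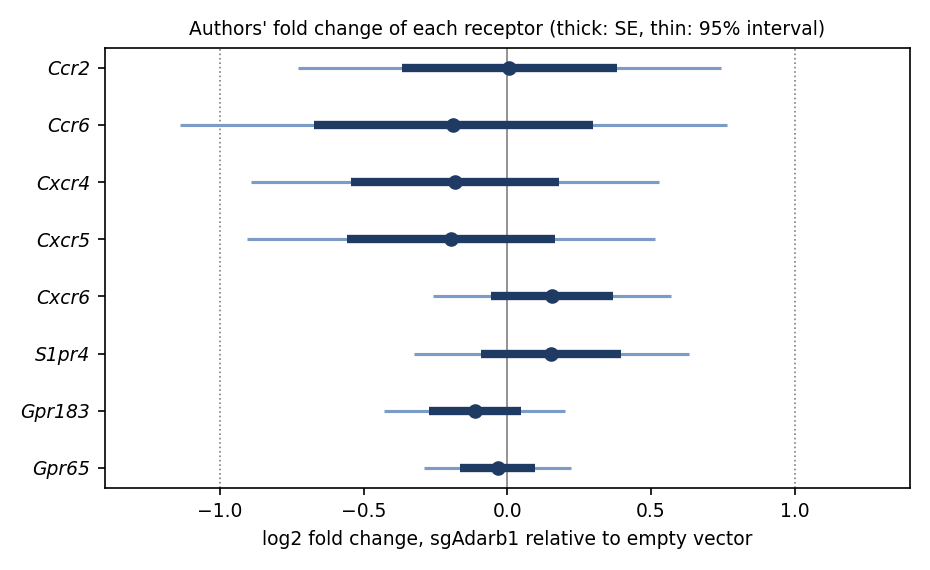
Log2 fold change of each receptor gene, sgAdarb1 relative to empty vector, from the authors' deposited table; points are the fold changes, thick bars 1 SE and thin bars the 95% interval, with dotted lines at 1 log2 unit on either side of 0. Every interval spans 0, and only that of Ccr6 (-1.14 to 0.76) crosses a dotted line.

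With the dependence of the fold change upon GC content and exon length removed, the values became 0.08 for S1pr4, 0.07 for Ccr2 and -0.02 for Gpr65, each shift smaller than the SE.

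The SE sets what could have been called. A gene passing alone among 29383 would have needed a Wald statistic (fold change over SE) of 4.79. That corresponds to a 1.54-fold difference for Gpr65, 1.70-fold for Gpr183, 2.02-fold for Cxcr6 and 2.25-fold for S1pr4. Cxcr5 and Cxcr4 would have needed 3.33-fold, Ccr2 3.47-fold and Ccr6 5.0-fold. These are the observed differences at which each would have passed alone with its deposited SE. Beside other genes with small p-values, a smaller difference could have passed.

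Ccr6 stood apart from the other 7 receptors by its error. In a DESeq2 fit the SE falls as the mean count rises and grows with the spread between libraries of the same group. At the mean of Ccr6 the running median SE over 500 genes ranked by mean was 0.17, and the SE of Ccr6 was 2.81 times that, at percentile 99.3 of all genes averaging at least 10 normalized counts. The other 7 receptors had SEs of 0.986 to 1.11 times the running median at their means. Of all genes with a mean of at least 10, 0.811% had a ratio of at least 2. Ccr6 had a larger SE than Ccr2, Cxcr4 and Cxcr5, whose means are lower, as the plot of SE against mean shows.

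A wide SE was also found for Ccl20, the chemokine ligand of Ccr6. Its SE of 3.97 was 4.43 times the running median in the authors' deposited table, where it averaged 23.7 normalized counts, so its fold change of 0.46 carries no direction. Of the 9 B cell markers, 6 had an SE of at least 2 times the running median. Ms4a1, which encodes the B cell surface protein CD20, averaged 177 normalized counts and was at -0.42 ± 3.97 in the authors' deposited table, 11.9 times the running median SE. Cd79b, a signalling chain of the B cell antigen receptor, was at 0.43 ± 1.00, or 2.62 times the running median SE, in the authors' deposited table. The remaining B cell markers Cd79a, Fcer2a and Cr2 had SEs of 1.31, 1.35 and 1.21 times the running median. Cxcr5 and Cxcr4, which B cells carry beside other cells, had SEs of 1.08 and 0.986 times it. The Th17 cytokine genes Il22 (3.45 times) and Il17f (5.19 times) had wide SEs as well, and so did the adhesion receptor Cd44. In all, 12 of the 147 genes in the lists or among the 8 receptors with a mean of at least 10 had a ratio of at least 2. The part of B cell RNA, or of any 1 library, in the error of Ccr6 was not tested.

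**Figure D3:**
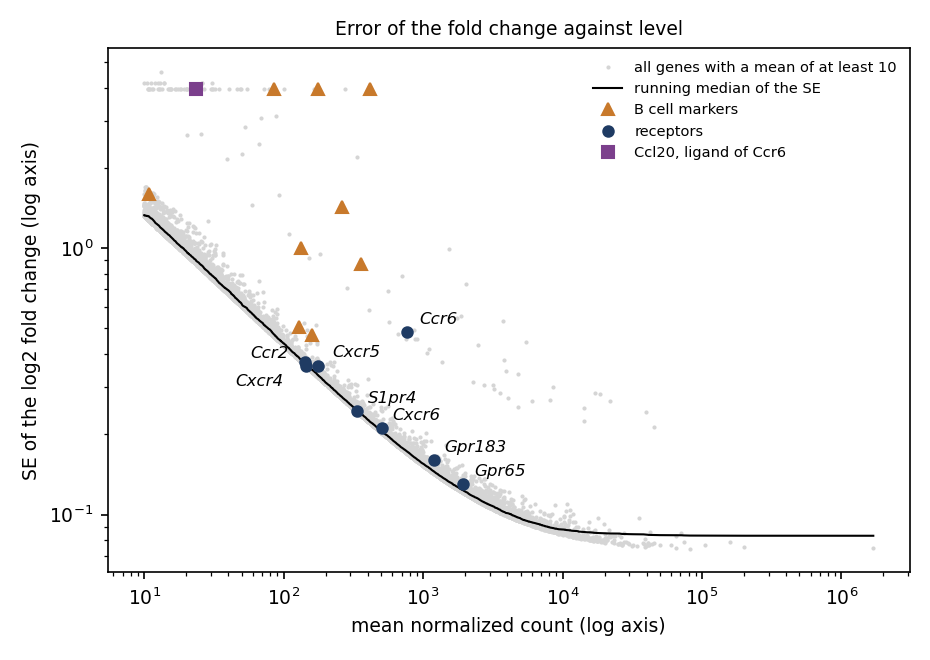
SE of the log2 fold change against the mean normalized count, both on log axes, for all genes with a mean of at least 10 (grey), with the running median (line), the 8 receptors (circles), B cell markers (triangles) and Ccl20 (square). Of the receptors, 7 lie on the line and Ccr6 lies above it at 2.81 times its height, as do 6 of the 9 B cell markers, among them Cd79b at 2.62 and Ms4a1 at 11.9 times.

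The chromosomal setting of the genes bears on how reads could be assigned to them. Coordinates are those of GENCODE M21 on mm10. Ccr2 (chromosome 9, 124101950 to 124113557, plus strand) and Cxcr6 (chromosome 9, 123806475 to 123811760, plus strand) lie 290 kb apart within a cluster of chemokine receptor genes. Other genes of that cluster within 500 kb did not pass the test either. Ccr1 was at 0.32 ± 0.32, Xcr1 at 0.03 ± 0.60 and Ccr3 at -0.02 ± 1.12 in the authors' deposited table. Ccr9 and Ccr1l1 averaged only 5.66 and 2.24 normalized counts in the authors' deposited table.

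Over all Ccr2 transcripts, 129 of 6758 different stretches of 50 bases (1.91%) also occurred in transcripts of other genes, 53 of 6709 (0.79%) at 100 bases. The sources used here give neither the read length nor how reads that fit 2 genes were counted. The value of Ccr2 is uncertain to that extent.

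Among the remaining receptors, Gpr65 shared the most transcript sequence with another gene and 4 shared none. Ccr6 (chromosome 17, 8236043 to 8257141, plus strand), Cxcr4 (chromosome 1, 128588199 to 128592293, minus strand), Cxcr6 and Gpr183 shared 0 stretches of 50 bases. S1pr4 (chromosome 10, 81497747 to 81500132, minus strand), a gene of 1 exon, shared 1.24% at 50 bases and 0 at 100. Gpr183 (chromosome 14, 121952551 to 121965195, minus strand) lies opposite Ubac2, whose mean was 653 normalized counts at -0.00 ± 0.18 in the authors' deposited table, with no exon in common. Cxcr6 likewise lies opposite Fyco1, at -0.08 ± 0.17 in the authors' deposited table, with no exon in common. Cxcr5 (chromosome 9, 44511787 to 44561877, minus strand) shares 110 bases of exon, 3.30% of its own, with Bcl9l on the opposite strand, which was at 0.03 ± 0.21 in the authors' deposited table. Through that overlap Cxcr5 shared 1.86% of its stretches of 50 bases. For Gpr65 (chromosome 12, 98268635 to 98276644, plus strand), 511 bases, 24.7% of its exon length, are covered by the antisense gene Gm47566, which was at 0 in the authors' deposited table. Gpr65 shared 365 of 2020 stretches of 50 bases (18.1%) and 10.9% at 100 bases with it. The sources used here do not say whether counting used the strand, so the values of Gpr65 and Cxcr5 are uncertain to that extent.

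The ligands, relatives and partners of the receptors were read from 8 lists. No gene of these lists passed in the authors' deposited table (DESeq2), 0 at an adjusted p and 0 at an unadjusted p below 0.05 among those with a mean of at least 10, beside 0% and 0.208% over all genes. The 0.208% covers genes of any mean above 0, and the share among those averaging at least 10 was not computed. In the chemokine receptor list, 15 of 25 genes had a mean of at least 10, 8 positive and 7 negative, with a median of 0.01. Smallest in p were Ccr8 at -0.24 ± 0.19 and Ccr1 at 0.32 ± 0.32, and Ccr4 had the highest mean (3267) at -0.01 ± 0.10, in the authors' deposited table.

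Of 9 ligand genes, 4 had a mean of at least 10 and all 4 were positive, with a median of 0.32. They were Cxcl12, the ligand of Cxcr4, at 0.20 ± 0.17, Mif, a cytokine that can bind Cxcr4, at 0.11 ± 0.10, Cxcl16 at 0.45 ± 0.84, and Ccl20, in the authors' deposited table. Each of these intervals spans 0, and the median fell to 0.15 when only Cxcl12 and Mif, with means of at least 50, were kept. Ccl8 and Ccl12, ligands of Ccr2, were at 0, and Cxcl13, the ligand of Cxcr5, averaged 2.47 normalized counts in the authors' deposited table.

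In the list of S1P receptors and metabolism, 13 of 15 genes had a mean of at least 10, with 8 positive and 5 negative and a median of 0.07. S1pr1, the receptor that drives exit from lymph nodes, stood at 696 normalized counts per kb, above the 141 of S1pr4, and was at 0.11 ± 0.12 in the authors' deposited table. Sgpl1, the lyase that degrades S1P, was at 0.16 ± 0.15, Klf2, a transcription factor that maintains S1pr1, at -0.25 ± 0.68, and Cd69, which removes S1pr1 from the surface, at -0.03 ± 0.12 in the authors' deposited table. The enzymes around the ligand of Gpr183 were nearly absent: Ch25h and Hsd3b7 were at 0, and Cyp7b1 and Cyp27a1 averaged 0.261 and 0.997 normalized counts, in the authors' deposited table. Of the proton-sensing receptors, Gpr65 was the highest per kb, with Gpr132 at 432 and Gpr4 at 5.62. Gpr4, with a mean of 16.2, was at 1.09 ± 1.14 in the authors' deposited table.

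The signalling side showed the same small values. Receptor kinases, arrestins and RGS proteins, which switch receptors off, had 8 positive and 6 negative of 14 genes with a mean of at least 10 (median 0.01). Rgs1, a brake on chemokine receptor signalling in lymphocytes, had the smallest p of that list at -0.16 ± 0.10, with Rgs16 at 0.12 ± 0.13, in the authors' deposited table. G proteins and effectors of chemotaxis had 19 positive and 12 negative of 31 (median 0.03), with Rac2, a GTPase of blood cell movement, at 0.13 ± 0.09, Gnai2, the inhibitory G protein subunit of chemokine receptors, at 0.11 ± 0.08, and Pik3r5 at -0.19 ± 0.18 in the authors' deposited table. Integrins, selectins and adhesion ligands had 10 positive and 6 negative of 16 (median 0.04). Itgb2, the shared chain of leukocyte integrins, was at 0.10 ± 0.09, and Cd44 at 0.11 ± 0.22 in the authors' deposited table.

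Markers of the cell types that could carry these receptors were read in the same way, counting genes with a mean of at least 10. By DESeq2 in the authors' deposited table, 0 of 54 markers passed after adjustment, while Il17a, Il17f and Cpa3 (3 of 54) lay under 0.05 before it, beside 0.208% over all genes. That share covers genes of any mean above 0, so the 2 are not alike. The share among genes averaging at least 10 was not computed. The limit left out Cma1, averaging 8.20 normalized counts (unadjusted p 0.0177 by DESeq2). Follicular helper T cell markers, the class of Cxcr5, were split 5 to 2 with a median of 0.02, with Bcl6 at 0.24 ± 0.33 and Icos at 0.01 ± 0.12 in the authors' deposited table. Naive T cell markers were split 5 to 2 (median 0.03), where the authors' deposited table has Tcf7 at 0.12 ± 0.11 and Lef1 at 0.03 ± 0.09. Among B cell markers there were 3 positive and 6 negative (median -0.13), and Cr2 was at -1.22 ± 1.59 in the authors' deposited table. Myeloid cells carry Ccr2, and 7 of 8 myeloid and dendritic cell markers were positive (median 0.47). In the authors' deposited table, Csf1r was at 1.35 ± 1.32, Flt3 at -0.68 ± 0.96 and Zbtb46 at 0.11 ± 0.35. The interval of each of these 8 markers spans 0, as does that of Ccr2 (0.01, interval -0.73 to 0.74). Whether Ccr2 and these markers differ cannot be told from such wide intervals and was not tested. Mast cell and basophil markers had 2 genes at that level, Cpa3 at -5.66 ± 1.26 (adjusted p 0.0709 by DESeq2) and Kit at 0.03 ± 0.54 in the authors' deposited table. CD8 T and NK cell markers had 3 positive and 2 negative (median 0.10), with Cd8a at 0.74 ± 0.71, Eomes at -0.41 ± 0.36 and Nkg7 at 0.10 ± 0.14 in the authors' deposited table. Th17 markers had 7 of 8 positive (median 0.14), among them Il17a at 0.70 ± 0.15 (adjusted p 0.0709 by DESeq2) and Il22 at 0.39 ± 0.34, with Ahr at -0.01 ± 0.17, in the authors' deposited table. CD4 T cell markers had 7 of 8 positive (median 0.05), with Cd4 at 0.09 ± 0.08 and Cd2 at -0.00 ± 0.10 in the authors' deposited table. The part of other cells in the receptor values was not tested.

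**Figure D4:**
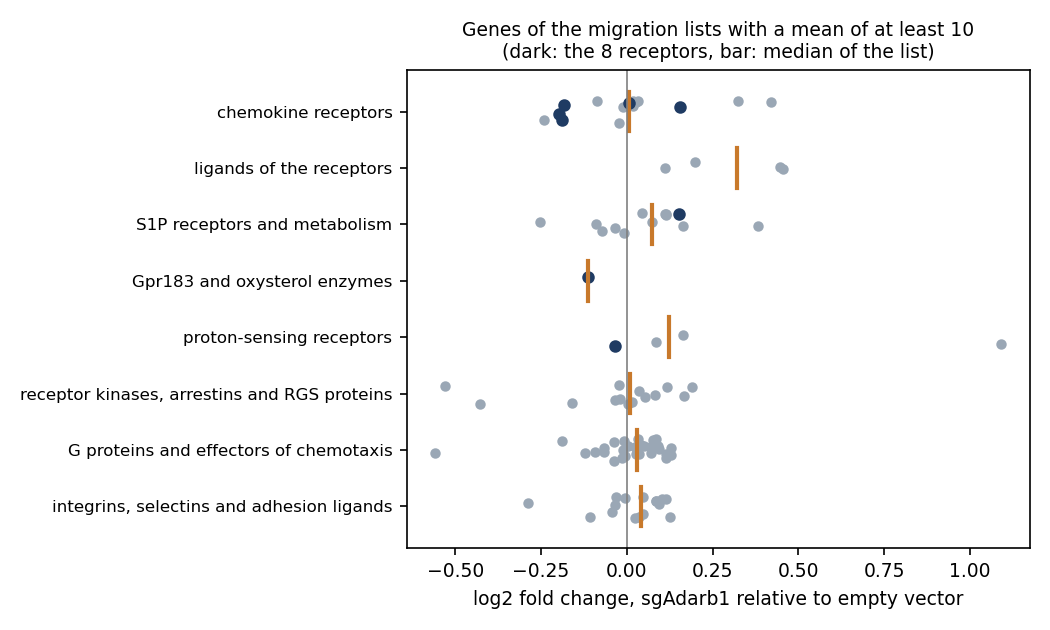
Log2 fold change, sgAdarb1 relative to empty vector, of each gene with a mean normalized count of at least 10 in the 8 lists, from the authors' deposited table; dark points are the 8 receptors, grey points other genes, and bars the median of each list. Medians lie between -0.11 (Gpr183 alone in its list) and 0.32 (4 ligand genes), and no gene passed the test.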

How the data were processed

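RNA of 4 Th17 cultures was sequenced after ribosome depletion, per the labels' protocols. The authors used DESeq2 1.18.1 after STAR 2.6.1a and featureCounts on mm10, per the submitters' processing notes. The sources used here give no model formula, strand setting or annotation. Per the file headers, the authors deposited for each gene a mean signal and a log2 fold change with its SE. They also gave the Wald score and a p-value with its adjusted p-value. The mean was read as DESeq2 defines it, counts over size factors averaged over libraries, which the headers do not spell out. Recomputation gave the deposited Wald score, p-value and Benjamini-Hochberg adjustment over the 29383 genes with a fold change; 26067 genes had a mean of 0. There were 4 further columns of values per library with names that match no label, which were not used, so the planned analysis of a deposited comparison was followed, depths are unknown, and no refit was made.

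From these values 95% intervals (normal), levels per kb of exon, running medians of the SE (500 genes) and list counts and medians were computed in Python 3.11.15 with pandas 2.3.3, numpy 2.4.6 and scipy 1.17.1, after a check on simulated data. All 55450 identifiers matched GENCODE M21, the source of symbols, positions, lengths and transcript sequences. Threshold: adjusted p below 0.05. The receptors and lists were chosen with earlier results of these data known. Named were all 8 receptors and, per list with no call, the gene of smallest p on each side and that of highest mean, overlapping genes and receptor genes of the same cluster; other list genes were named after their values were seen. Some genes that this rule names are not reported here. Whether the cultures of a group are independent beyond their donors is not stated, so the p-values are limited to these samples. Both groups share the 2 donors, and whether the authors' fit took this pairing into account is not known.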

Additional observations from a re-analysis of the deposited data

How the results depend on the processing

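No paired analysis was possible because no per-library value could be matched to a sample label; DESeq2 and edgeR refits, other size factors, filters on counts and leaving out a culture were not run for the same reason. Against 0 genes called over the whole table, 3 passed with p-values adjusted over the genes of mean 10 or more, 2 over those of mean 50 or more, 3 at an adjusted p below 0.1, and 61 at an unadjusted p below 0.05. None of the 8 receptors was among them. Adjustment over fewer genes, centring on the median of all genes and removal of a trend on GC content and exon length gave 40 values for the 8 receptors. Their adjusted p (Wald test) ran from 0.99992 to 0.999986. No direction turned, but adjustment over fewer genes leaves the fold change as it is, and centring subtracted only 0.002 or 0.005. Only removal of the trend could thus readily have turned a direction. The trend setting moved S1pr4 from 0.15 to 0.08, Gpr65 from -0.03 to -0.02 and Ccr2 from 0.01 to 0.07, and centring on genes of mean 50 or more put Ccr2 at 0.00. Without a filter on the mean, the median of the oxysterol list was -1.29, since 2 genes with means below 1 joined Gpr183. The window of the running median, 200 or 1000 genes, was added after seeing the data and left Ccr6 at 2.82 and 2.80. Depths are unknown, so what they limit was not tested.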
